A study of Macaca mulatta with 13 samples.

Results

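The insulin-like growth factor (IGF) family was described in thigh muscle (vastus lateralis) from old male rhesus macaques fed either a control or a calorie-restricted (CR) diet. The family comprised the ligand genes IGF1 and IGF2, the receptor genes IGF1R and IGF2R, and the binding protein genes IGFBP2, IGFBP3, IGFBP4, IGFBP5, IGFBP6 and IGFBP7. Members were taken as every probe set (a group of short probes read as 1 value) that the array annotation pairs with exactly 1 of these 10 symbols. This gave 21 probe sets for all 10 genes, out of 14132 genes so named and 52766 probe sets on the array other than its controls. Of the 21, 20 were among the brighter 50% of probe sets on which the diet comparison was run, and a probe set of IGF1R was below that limit.

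The control group held 5 animals aged 27 to 30 years and the CR group held 8 animals aged 27 to 32 years, with 18.5 years given as the duration of the restriction. Both groups were old males, so the comparison is of diet in old age, and no age contrast was made. The labels call the samples biological replicates, read here as 1 animal per one-colour Affymetrix array, and the number of arrays limits the precision. Values are log2 of the deposited signal, so a difference of 1 is a doubling, and signals of different probe sets are not compared as levels because probes differ in how brightly they bind.

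IGF1 and IGF2 are small secreted hormones related to insulin. Liver makes most of the circulating IGF1 under the control of growth hormone, while muscle makes its own IGF1, which acts locally on fibre growth and repair. Both ligands signal through IGF1R, a tyrosine kinase receptor, whereas IGF2R, also the receptor for mannose 6-phosphate, mainly carries IGF2 to lysosomes. The binding proteins hold the ligands in blood and matrix and set how much reaches the receptor, and reduced circulating IGF1 is a known feature of calorie restriction in rodents.

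No member differed between the diets beyond the spread between animals. With limma's moderated test and Benjamini-Hochberg adjustment over all 26383 tested probe sets, 0 of the 20 member probe sets passed an adjusted p of 0.05, and the adjusted p was 0.999 for each. The background was also 0%, with no tested probe set past that threshold. At an unadjusted p under 0.05, limma called 0 of the 20 members, against a background of 2.43% (641 probe sets), of which 1.25% were higher and 1.18% lower in CR. An exact permutation test over every split of the 13 animals into groups of 5 and 8 also gave 0 adjusted calls over the whole table, with 721 probe sets at an unadjusted p under 0.05, none of them a member. The control and CR arrays overlapped for all 21 member probe sets, where 0.0720% of tested probe sets did not overlap.

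The members' differences were small and mostly negative. CR minus control was below 0 for 14 of the 20 tested member probe sets and above 0 for 6, while 48.1% of all tested probe sets were above 0. The median difference was -0.095 for the members and -0.012 for all tested probe sets. This lean changed with 1 animal: without control replicate 4, 8 member probe sets were below 0 and 12 above, with a median of 0.019. Splits of 8 below and 12 above were also found with the replicate number as a block and when both control replicate 4 and CR replicate 8 were removed. Control replicate 4 was highest for 9 of the 21 member probe sets and CR replicate 8 lowest for 4. Removing both therefore tends to raise the members' differences by itself. The median half-width of a member's 95% interval was 0.64, before any adjustment for the number of tests. Differences of that size, and larger ones for the more variable probe sets, could be missed here. IGF1R probe set 2, for example, differed by -0.80 with an interval from -1.72 to 0.12.

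**Figure D1:**
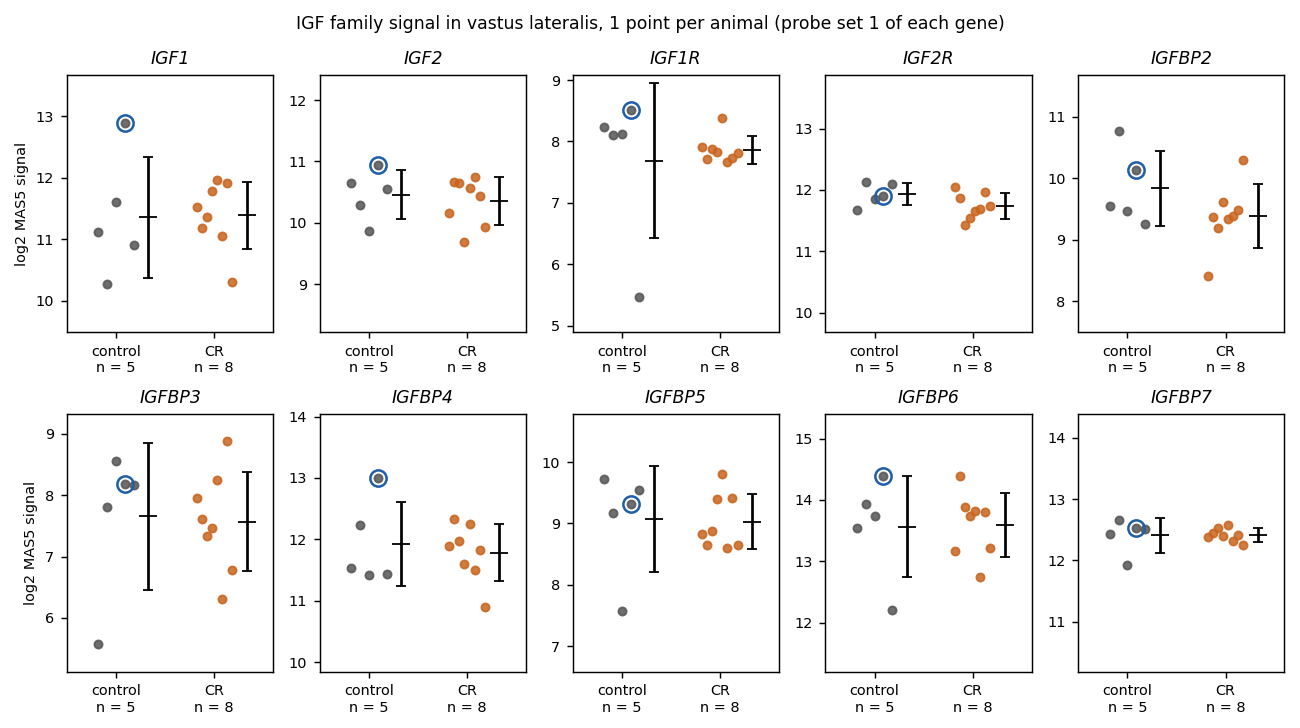
Log2 MAS5 signal (y axis) of the brightest probe set of each of the 10 genes in 5 control (grey) and 8 CR (orange) animals, 1 point per animal, with the mean and SD as a black bar and control replicate 4 ringed in blue. Every panel spans the same number of log2 units, the groups overlap in each, and control replicate 4 is the highest of the 13 arrays for IGF1, IGF2, IGF1R and IGFBP4.

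Among the ligands, IGF1 had 4 probe sets, which did not give 1 answer. The brightest, MmugDNA.4061.1.S1_at, had log2 signals of 11.12, 10.27, 11.61, 12.90 and 10.90 in control replicates 1 to 5, and ran from 10.31 through a median of 11.44 to 11.97 in CR. Control replicate 4 was above every other array and control replicate 2 and CR replicate 8 were at the bottom, so the CR range lay inside the control range. The difference was 0.027 ± 0.36 (SE, log2), with a 95% interval from -0.74 to 0.79. Without control replicate 4 it was 0.41 and without control replicate 2 it was -0.25, so no direction can be given for this probe set. It turned to -0.013 after quantile normalization and to -0.0042 after median centring.

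The second IGF1 probe set, MmuSTS.628.1.S1_at, had 11.40 in control replicate 4 and 9.31 to 10.16 in the other controls, and 8.41 to 10.58 in CR. Its difference was -0.21 ± 0.37 (SE), and 0.12 without control replicate 4. The third, MmugDNA.7733.1.S1_at, differed by -0.0091 ± 0.38, and by 0.24 without control replicate 4. These 3 probe sets moved together over the animals, with control replicate 4 highest in each. The fourth, MmugDNA.38092.1.S1_at, differed by -0.27 ± 0.43 (SE) and followed the others only in part: control replicate 4 was again the highest at 8.15, but CR replicate 3, which was near the middle or high on the others, was lowest at 5.79. Removing both control replicate 4 and CR replicate 8 gave 0.57 ± 0.24 for the brightest IGF1 probe set, with an unadjusted p of 0.0359 and an adjusted p of 0.9998 from limma. These animals held the highest control and the lowest CR value of that probe set. Their removal had to raise the difference, so this unadjusted p is no evidence of a diet effect.

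Agreement between probe sets was measured over the 13 arrays for the 25 pairs that share a gene, with p-values adjusted over these 25. Probe sets 1 and 2 of IGF1, numbered by brightness, correlated with Pearson's r = 0.863 (permutation p = 0.00039, adjusted p = 0.00488) and Spearman's rho = 0.819 (permutation p = 0.00104, adjusted p = 0.0260). Without the 2 animals farthest from the median, r was 0.816, and within the 8 CR animals it was 0.832. Probe sets 2 and 3 gave r = 0.897 (permutation p = 0.0001, adjusted p = 0.0025) and rho = 0.786 (permutation p = 0.00231, adjusted p = 0.0289), with r = 0.703 without the 2 farthest. For probe sets 1 and 3 r was 0.768 (permutation p = 0.00315, adjusted p = 0.0197), and 0.682 without the 2 farthest. Their rank agreement did not pass adjustment, at rho = 0.610 (permutation p = 0.0299, adjusted p = 0.145). Probe set 4 correlated with probe sets 1, 2 and 3 at r = 0.276, -0.042 and 0.012, with permutation p-values of 0.361, 0.891 and 0.969, and at rho = 0.302, -0.011 and 0.115 (permutation p = 0.314, 0.979 and 0.710). Between-animal differences in IGF1 signal were thus shared by 3 of its 4 probe sets, which were read from the same RNA on the same arrays.

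IGF2 was read by 1 probe set. Its log2 signal was 10.65, 10.30, 9.87, 10.94 and 10.55 in control replicates 1 to 5, and in CR it ran from 9.69 through a median of 10.50 to 10.75. The 2 groups covered nearly the same range, with control replicate 4 highest and CR replicate 4 lowest. The difference was -0.11 ± 0.21 (SE), with a 95% interval from -0.56 to 0.35, and 0.014 without control replicate 4. In the rhesus RefSeq table (assembly T2T-MMU8v2.0) IGF2 lies next to INS, the insulin gene.

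Of the receptors, IGF1R had the largest difference of any member, in its probe set 2. In MmugDNA.21123.1.S1_at (probe set 2) the controls were at 8.52, 8.36, 8.29, 8.50 and 7.65, and CR animals ran from 5.39 through a median of 7.78 to 8.52. CR replicates 3 and 7, at 5.39 and 6.45, were well below all other animals, and the remaining 6 CR animals were spread from 7.43 to 8.52, overlapping the controls. The difference was -0.80 ± 0.44 (SE), or a signal 1.74-fold higher in controls, with 6 of 8 CR animals below the control mean and a 95% interval from -1.72 to 0.12. Limma's unadjusted p was 0.0851 and its adjusted p 0.999. Leaving out CR replicate 3 brought the difference to -0.50, and leaving out CR replicate 5 gave an unadjusted limma p of 0.0437, which did not pass adjustment.

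The other tested IGF1R probe set, MmugDNA.21121.1.S1_at (probe set 1), had the opposite sign. Its controls were at 8.23, 8.11, 8.13, 8.52 and 5.46, and CR ran from 7.66 through a median of 7.82 to 8.38. Control replicate 5 alone was far below, and the other 4 controls were above 7 of the 8 CR animals. The difference was 0.18 ± 0.40 (SE), and without control replicate 5 it was -0.38 ± 0.20, with an unadjusted p of 0.0797 and an adjusted p of 0.931 from limma. The dimmest of the 3, MmunewRS.692.1.S1_at, with a mean signal of 49.5 against the limit of 107 for testing, ran from 4.04 to 7.03 in controls and from 3.10 to 6.76 in CR. Its difference was -0.57 ± 0.72 (SE), with the sign of probe set 2 and a 95% interval from -2.07 to 0.94.

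Probe sets 1 and 2 of IGF1R correlated poorly as values and better as ranks. Pearson's r was 0.221 (permutation p = 0.36, adjusted p = 0.544), while Spearman's rho was 0.758 (permutation p = 0.004, adjusted p = 0.0333), and without the 2 farthest animals r was 0.488. Each probe set had its own animals at the bottom, control replicate 5 in the first and CR replicates 3 and 7 in the second. Averaged over both, the IGF1R difference was -0.31 ± 0.35 (SE), with an adjusted p of 0.999 from limma over all genes.

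**Figure D2:**
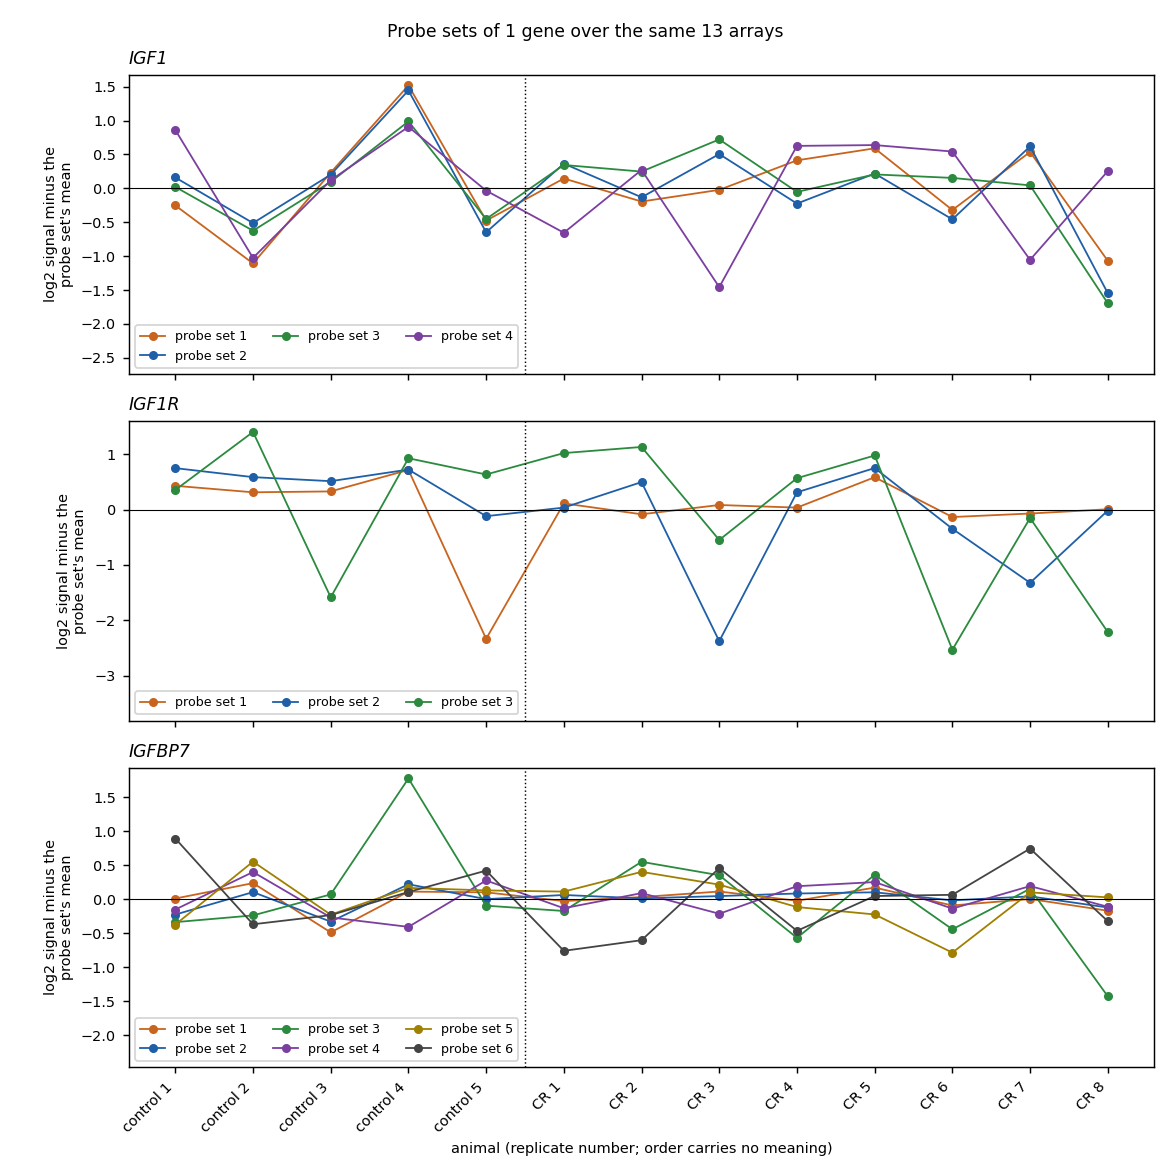
Log2 signal of each probe set minus its own mean over the 13 arrays (y axis) for IGF1, IGF1R and IGFBP7, with 1 position per animal on the x axis and a dotted line between the 5 controls and the 8 CR animals. Probe sets 1 to 3 of IGF1 move together while probe set 4 departs from them, IGF1R probe sets drop in different animals, and among IGFBP7 probe sets the third swings most, from control replicate 4 at the top to CR replicate 8 at the bottom.

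IGF2R gave the tightest receptor values. MmugDNA.20271.1.S1_at read 11.68, 12.12, 11.86, 11.91 and 12.10 in control replicates 1 to 5, and 11.44 through a median of 11.71 to 12.05 in CR. The controls sat towards the upper end of a narrow common range, and 6 of 8 CR animals were below the control mean. The difference was -0.19 ± 0.14 (SE), with a 95% interval from -0.49 to 0.11 and an unadjusted p of 0.192 (adjusted p 0.999, limma). The second probe set, MmuSTS.629.1.S1_at, differed by -0.14 ± 0.14, from 10.07 ± 0.19 (SD, n = 5) in controls to 9.93 ± 0.18 (SD, n = 8) in CR. With 1 animal left out at a time, the differences stayed between -0.26 and -0.14 for the first and between -0.23 and -0.10 for the second. The 2 probe sets correlated at r = 0.629 (permutation p = 0.0223, adjusted p = 0.112) and rho = 0.577 (permutation p = 0.0416, adjusted p = 0.149), and at r = 0.396 without the 2 farthest animals.

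Among the binding proteins, IGFBP2, which is found in blood and in tissue matrix, had the largest difference. Its probe set, MmugDNA.19111.1.S1_at, read 9.55, 10.77, 9.47, 10.14 and 9.26 in control replicates 1 to 5. In CR it ran from 8.41 through a median of 9.39 to 10.30. The medians of the groups were close, and control replicate 2 stood highest and CR replicate 1 lowest of the 13 arrays. The difference was -0.45 ± 0.29 (SE), a signal 1.36-fold higher in controls, with 7 of 8 CR animals below the control mean, an unadjusted p of 0.135 and an adjusted p of 0.999 from limma. Without control replicate 2 the difference was -0.22, and without control replicate 5 it was -0.59. In limma, without CR replicate 8 the difference was -0.58 (unadjusted p 0.0451, adjusted p 0.99996).

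IGFBP3, the main carrier of IGF1 in blood together with the acid-labile subunit, was read by 1 probe set. The controls were at 5.57, 7.81, 8.55, 8.17 and 8.17, and CR ran from 6.30 through a median of 7.54 to 8.87. Control replicate 1 was far below the other 4 controls. The difference was -0.085 ± 0.49 (SE), and -0.60 without control replicate 1. IGFBP5, the binding protein gene next to IGFBP2 in the genome and active during myoblast differentiation, showed the same kind of single low control: its 1 probe set read 9.72, 9.18, 7.57, 9.32 and 9.55 in controls and 8.61 through 8.85 to 9.80 in CR. Its difference was -0.040 ± 0.32, and -0.41 without control replicate 3. Although IGFBP2 and IGFBP5 are neighbours in the RefSeq table, their signals did not move together over the 13 arrays, with r = 0.066 (permutation p = 0.821) and rho = -0.016 (permutation p = 0.963), and r = -0.055 without the 2 farthest animals.

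IGFBP4, which binds the ligands until proteases such as PAPPA cut it, was read by MmugDNA.18189.1.S1_at. Its log2 signal was 11.53, 12.23, 11.42, 12.99 and 11.44 in control replicates 1 to 5, and 10.89 through a median of 11.86 to 12.34 in CR. Control replicate 4 was the highest and CR replicate 8 the lowest array. The difference was -0.14 ± 0.28 (SE), and 0.13 without control replicate 4. IGFBP6, which prefers IGF2 over IGF1, was read by MmugDNA.23639.1.S1_at at 13.54, 13.93, 13.74, 14.39 and 12.21 in controls and 12.75 through 13.77 to 14.40 in CR. Control replicate 5 was the lowest array here. The difference was 0.034 ± 0.32, turning to -0.30 without control replicate 5 and to -0.052 after quantile normalization.

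IGFBP7, a distant relative that binds IGFs weakly and is abundant around blood vessels, had 6 probe sets with very different spreads. The brightest, MmugDNA.10728.1.S1_at, read 12.42, 12.65, 11.93, 12.53 and 12.52 in control replicates 1 to 5, and 12.24 through a median of 12.40 to 12.58 in CR. All animals but control replicate 3 lay within a narrow band. The difference was 0.0065 ± 0.14 (SE), with a 95% interval from -0.28 to 0.30, among the narrowest of the family. The sign of this small value turned under quantile normalization and median centring, to -0.020 and -0.025.

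The second IGFBP7 probe set differed by 0.072 ± 0.13, with an SD of 0.071 among the 8 CR animals. The third, MmugDNA.20278.1.S1_at, read 13.43 in control replicate 4 and 11.31 to 11.72 in the other controls, and ran from 10.22 to 12.20 in CR. Its difference of -0.39 ± 0.36 (SE) was 0.00030 without control replicate 4, so the difference was not seen in the other animals. Differences of the remaining IGFBP7 probe sets were 0.046 ± 0.17 for MmugDNA.9577.1.S1_s_at, -0.083 ± 0.21 for MmugDNA.32638.1.S1_at and -0.27 ± 0.29 for MmugDNA.5502.1.S1_at. The signs were thus mixed, with 3 of 6 above 0. Of the 15 pairs of IGFBP7 probe sets, only probe sets 1 and 2 correlated past adjustment, with r = 0.777 (permutation p = 0.00299, adjusted p = 0.0197) and rho = 0.676 (permutation p = 0.0135, adjusted p = 0.0844), and r = 0.515 without the 2 farthest animals.

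**Figure D3:**
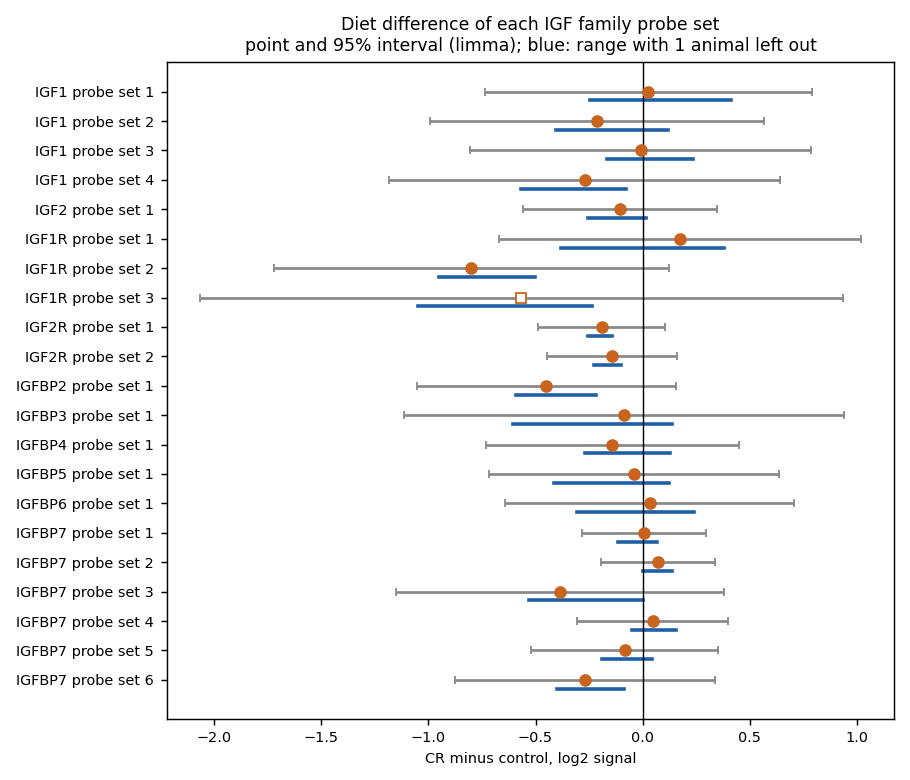
CR minus control difference of log2 signal (x axis) for each of the 21 member probe sets, with the 95% interval from limma in grey, the range with 1 animal left out in blue, and an open square for the probe set below the brightness limit. Every interval includes 0, and the intervals of both IGF2R probe sets and of IGFBP7 probe sets 1 and 2 are the narrowest.

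Spread between animals was large for the family. Control animals had the larger SD for 15 of the 20 tested member probe sets (75%), where 55.8% of all tested probe sets had a larger SD in controls. The median SD of the members was 0.62 in controls and 0.49 in CR, against 0.45 and 0.42 for all tested probe sets. These values are descriptions, since the groups differ in size and 1 animal can set an SD among 5.

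Single animals accounted for many of the extremes. Control replicate 4 was the highest of the 13 arrays for 9 of the 21 member probe sets, among them all 4 of IGF1, and the lowest for 1, IGFBP7 probe set 4. Control replicate 2 was the highest for 7, including both of IGF2R and the IGFBP2 probe set. CR replicate 8 was the lowest for 4 and the highest for none. CR replicate 3 was likewise lowest for 4, both IGF2R probe sets included. How often each array was extreme over all tested probe sets was not counted, so these counts cannot be called particular to the family.

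The muscle label was checked against fibre markers: 11 of 18 fibre genes had a named probe set, all above the brightness limit, with mean signals of 71120 in controls and 85907 in CR for the creatine kinase gene CKM and of 53770 and 45838 for the slow troponin gene TNNT1. Mean signal was higher in CR for 5 of the 11 fibre genes. Bulk muscle also holds other cells, and fewer cells of a type and less RNA per cell cannot be told apart. Control replicate 4 had the lowest summed fibre marker signal of the 13 arrays, 398076, where the CR arrays lay between 556404 and 1038903 and the next control was at 502119. It had the highest control sums of markers of endothelium (20677, next control 14469), pericytes and smooth muscle (23785, next 10657), fibroblasts and matrix (211694, next 134022), adipocytes (38821, next 20200), macrophages (6822, next 5591) and Schwann cells (14668, next 7790). It also had the highest IGF1, IGF2 and IGFBP4 signals, and the part of these markers in the members' values was not tested. Its actin 3-prime over 5-prime log2 ratio, used here as a measure of RNA quality, was also the highest of the 13 arrays. That ratio was 2.41 in control replicate 4, with CR replicate 5 next at 2.08. For GAPDH the ratio was 0.73 in control replicate 4, within the range of the other arrays.

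Between the diets, none of the 9 marker sums differed in an exact two-sided permutation test, with adjusted p-values from 0.566 to 0.899. The log2 difference was 0.17 for fibres (11 of 18 genes measured), -0.43 for endothelium (10 of 11), -0.37 for pericytes and smooth muscle (5 of 9), -0.051 for fibroblasts and matrix (11 of 12) and -0.36 for adipocytes (5 of 7). For macrophages it was -0.034 (7 of 8), for blood -0.14 (2 of 6), for Schwann cells -0.067 (3 of 5) and for satellite cells 0.22 (5 of 5, exact permutation p = 0.0629 before adjustment). Without control replicate 4 the difference was -0.19 for endothelium, -0.095 for pericytes and smooth muscle and -0.049 for adipocytes. The signal of 10 of 10 endothelial and 5 of 5 pericyte and smooth muscle genes was lower on average in CR, and PMP22 makes up most of the Schwann cell sum. These counts use linear group means, on which the high control replicate 4 weighs, and were not repeated without it. Some gaps were slight, as for KDR (81.5 in controls, 80.6 in CR) and TIE1 (419 and 412). By log2 difference, 4925 of all 9812 tested genes were lower in CR.

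Levels of IGFBP4 and IGFBP6 followed the fibroblast and matrix markers from animal to animal. Of 90 relations between the 10 members and the 9 marker sums over 13 arrays, 7 passed adjustment, all positive, and 6 of these were of IGFBP4 or IGFBP6. How many other tested genes followed the marker sums in this way was not counted. These relations therefore cannot be called particular to the family or to these members. IGFBP6 correlated with the fibroblast and matrix sum at r = 0.880 (permutation p = 9e-05, adjusted p = 0.0081) and rho = 0.918 (permutation p = 6e-05, adjusted p = 0.0054). Without the 2 farthest animals r was 0.797, within CR it was 0.797, and without control replicate 4 it was 0.888. IGFBP6 also correlated with the macrophage sum at r = 0.857 (permutation p = 0.00028, adjusted p = 0.0126) and rho = 0.846 (permutation p = 0.00063, adjusted p = 0.0189), with r = 0.876 without the 2 farthest and 0.949 within CR.

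IGFBP4 correlated with the fibroblast and matrix sum at r = 0.857 (permutation p = 0.00042, adjusted p = 0.0126) and rho = 0.868 (permutation p = 0.00025, adjusted p = 0.0112), with r = 0.824 without the 2 farthest animals and 0.835 within CR. Its relation to the pericyte and smooth muscle sum, with r = 0.796 (permutation p = 0.00091, adjusted p = 0.0198), was weaker by rank at rho = 0.626 (permutation p = 0.0251, adjusted p = 0.204) and gave r = 0.624 without the 2 farthest. The Schwann cell sum passed with 3 members. For IGFBP6 r was 0.804 (permutation p = 0.0011, adjusted p = 0.0198) and rho 0.742 (permutation p = 0.00512, adjusted p = 0.115), with r = 0.828 without the 2 farthest animals. For IGFBP4 r was 0.788 (permutation p = 0.0018, adjusted p = 0.027) and rho 0.621 (permutation p = 0.0272, adjusted p = 0.204), but r was 0.471 without the 2 farthest. For IGF1 it was r = 0.765 (permutation p = 0.00292, adjusted p = 0.0375), but rho was 0.670 (permutation p = 0.0148, adjusted p = 0.204) and r fell to 0.450 without the 2 farthest animals, so that relation rested on them. The points share their array, so a factor common to an RNA sample enters both axes.

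**Figure D4:**
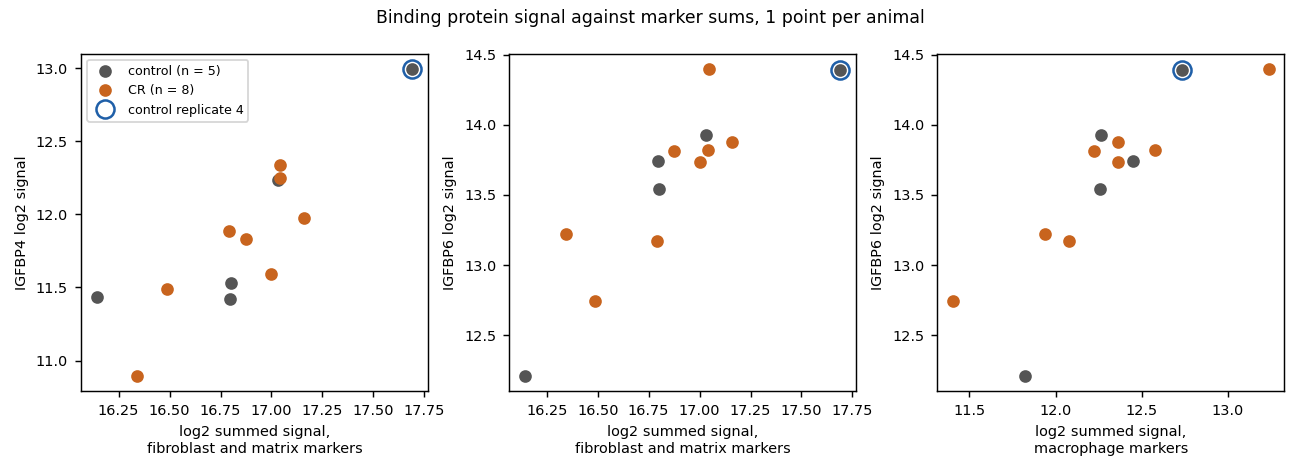
Log2 signal of IGFBP4 and IGFBP6 (y axes) against the log2 summed signal of fibroblast and matrix or macrophage markers (x axes), 1 point per animal, 5 control (grey) and 8 CR (orange), with control replicate 4 ringed. The points of both diets lie along 1 rising band in each panel, with r from 0.857 to 0.880.

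Pairs of members were less closely tied. Of the 45 pairs of the 10 genes, each by its brightest probe set, 0 passed adjustment by Pearson's r in the permutation test, and 31 were positive. IGFBP4 and IGFBP6 gave r = 0.678 (permutation p = 0.0113, adjusted p = 0.170) and rho = 0.791 (permutation p = 0.00193, adjusted p = 0.0869), with r = 0.658 without the 2 farthest. IGFBP5 and IGFBP7 gave the highest value, r = 0.788 (permutation p = 0.00399, adjusted p = 0.151) and rho = 0.599 (permutation p = 0.0339, adjusted p = 0.422), but r = 0.395 without the 2 farthest animals.

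The genes whose signal was most like a member's were sought among 9802 other tested genes, by Pearson's r over the 13 arrays. They are the highest of many and carry no test. IGFBP6 was most like LYVE1, which encodes the hyaluronan receptor of lymphatic vessels and some tissue macrophages (r = 0.972, rho = 0.896, and 0.926 without the 2 farthest animals), and EMP3 (r = 0.947, rho = 0.956). IGFBP4 was most like FKBP9 (r = 0.945, rho = 0.934) and the tetraspanin gene CD81 (r = 0.936, rho = 0.929). IGF1 was most like LOC704690 (r = 0.907) and NUCB2, the nucleobindin and nesfatin precursor gene (r = 0.876, and 0.737 without the 2 farthest). For IGF2 these were TMEM176B (r = 0.867) and the tenascin gene TNN (r = 0.857), and for IGF2R the RNA-binding protein gene HNRNPUL2 (r = 0.862) and DIDO1 (r = 0.859).

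For the remaining members the likeness was lower without the 2 farthest animals. It was also lower for the members above, as for IGF1 with LOC704690 (0.830) and IGF2R with DIDO1 (0.777). The exception was IGF2R with HNRNPUL2 (0.925). IGF1R was nearest to GREB1 at r = 0.960 but rho = 0.637, and r = 0.488 without the 2 farthest animals. IGFBP7 was nearest to NPRL3 at r = 0.895, which became 0.561, and IGFBP3 to ZNF350 at r = 0.845, which became 0.524. IGFBP2 was nearest to CNOT8, a deadenylase subunit gene, at r = 0.887 (0.668 without the 2 farthest), and IGFBP5 to RBM42 at r = 0.890 (0.722). The second gene for these 5 members was LOC703058 for IGF1R (r = 0.951, and 0.256 without the 2 farthest), VWA1 for IGFBP7 (r = 0.858, 0.558), PPP1R13B for IGFBP3 (r = 0.811, 0.519), XPNPEP3 for IGFBP2 (r = 0.832, 0.636) and RAB30 for IGFBP5 (r = 0.874, 0.747).

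Other genes of the pathway were taken from lists of growth hormone signalling, control of IGF availability, IGF mRNA-binding proteins, receptor signalling and related factors. Of 57 listed genes, 46 had a named probe set and 38 were tested, and 0 passed limma's adjusted test in either direction. At an unadjusted p under 0.05, 1 of the 38 was called, or 179 of all 9812 tested genes. The difference was above 0 for 15 and below 0 for 23, with a median of -0.068, against -0.0016 over all tested genes. Without control replicate 5 the split was 20 above and 18 below.

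Upstream of IGF1, the growth hormone receptor gene GHR differed by 0.30 ± 0.27 (SE), and 1 of 6 tested genes of this list was above 0. The kinase gene JAK2, which the receptor activates, differed by -0.29 ± 0.29, and by 0.054 without control replicate 4. STAT5B, the transcription factor that drives IGF1 in response to growth hormone, differed by -0.079 ± 0.16, and by 0.00062 without control replicate 5. None of the 6 passed limma's test.

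Genes that set IGF availability were split evenly, with 3 above 0 and 3 below. IGFALS, encoding the acid-labile subunit that carries IGF with IGFBP3 or IGFBP5 in blood, differed by 0.19 ± 0.35 (SE). PAPPA2, a protease that cuts IGFBP3 and IGFBP5, differed by -0.34 ± 0.35. Probe sets of IGFBP1, SOCS2, ADAM12, IGF2BP1, IGF2BP2, IGF2BP3, CRIM1 and ESM1 were below the brightness limit and outside the main limma test. Their SEs come from limma fitted without the brightness filter, where 0 of all probe sets passed adjustment. Among these dim probe sets IGF2BP1, which encodes an mRNA-binding protein, differed by 0.85 ± 0.46 (SE) with overlapping groups and 8 of 8 CR animals above the control mean (exact permutation p = 0.0466, unadjusted), and IGFBP1 by 1.90 ± 0.81 (exact permutation p = 0.0645, unadjusted). The 95% interval of IGFBP1, before adjustment, was 0.20 to 3.59, and its difference was 1.26 without control replicate 4. The other IGF mRNA-binding protein genes went the other way. IGF2BP2 differed by -0.92 ± 0.68 (SE), with 8 of 8 CR animals below the control mean (exact permutation p = 0.163, unadjusted). IGF2BP3 differed by -0.71 ± 0.41, with 7 of 8 below (exact permutation p = 0.0816, unadjusted). SOCS2, CRIM1 and ADAM12 were also below 0, at -0.49, -0.47 and -0.018, and ESM1 was above at 0.15. PAPPA, STC2, INSR and FOXO3 lacked a probe set named for them alone and were not analysed here.

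Below the receptor, 11 of 21 tested genes were above 0 and 10 below, with a median of 0.0058. IRS2, an adaptor that carries the insulin and IGF1 receptor signal to PI3 kinase, was the 1 gene with an unadjusted p under 0.05. It read 12.29, 11.22, 11.72, 10.93 and 11.55 in control replicates 1 to 5, and 11.30 through a median of 12.12 to 13.04 in CR. The groups overlapped, with 7 of 8 CR animals above the control mean and control replicate 4 the lowest array. The difference was 0.63 ± 0.26 (SE), a signal 1.55-fold higher in CR, with limma's unadjusted p at 0.0246 and adjusted p at 0.999. The limma p rose above 0.05 without control replicate 2 (0.55, unadjusted p 0.0655), without control replicate 4 (0.48, 0.0824), with both control replicate 4 and CR replicate 8 removed (0.49, 0.0949) and with RNA quality ratios as covariates (0.49, 0.0530), with adjusted p-values of 0.904 or more over all settings. The second IRS2 probe set differed by 0.25 ± 0.26, and by 0.11 without control replicate 4.

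The sister adaptor IRS1 differed by 0.11 ± 0.27 (SE). The PI3 kinase regulatory subunit gene PIK3R1 differed by -0.54 ± 0.32, and by -0.23 without control replicate 4. AKT1 and AKT2, the kinases that carry the signal to glucose uptake and protein synthesis, differed by 0.0058 ± 0.18 and -0.010 ± 0.17. The growth kinase gene MTOR differed by 0.14 ± 0.21, its target RPS6KB1 by 0.27 ± 0.20, and GRB10, an adaptor that restrains the receptors, by 0.045 ± 0.25. None passed limma's test. The 5 tested related factors were below 0, with a median of -0.34, where 4925 of all 9812 tested genes were below 0. Without control replicate 4, CCN1 was 0.025, CCN2 0.043 and IGFLR1 0.088. These were CCN1, CCN2, CCN3 and CCN5, secreted matrix proteins with an IGF-binding-like domain, and IGFLR1.

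**Figure D5:**
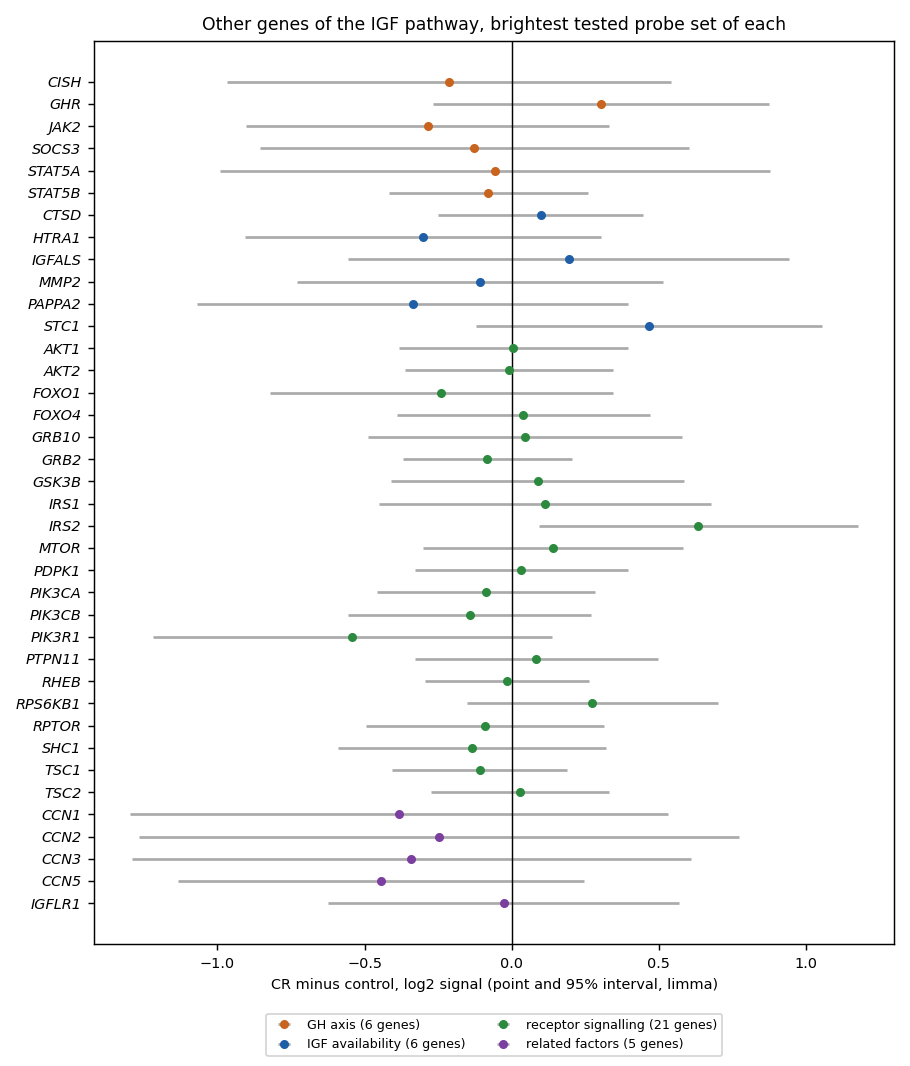
CR minus control difference of log2 signal (x axis, point and 95% interval from limma) for the 38 tested genes of the wider pathway, coloured by list. IRS2 alone has an interval that leaves out 0, before any adjustment for the number of tests.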

How the data were processed

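The authors summarised each probe set of each array into 1 intensity value with MAS5, per the submitters' processing notes; its version was not given in the sources used here. Each array had a 2% trimmed mean of 500, so a shift of most transcripts would not be seen.

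From 52865 probe sets, 99 controls were removed. Signals were floored at 1 (137 values) and log2 transformed, and the brighter 50% by mean log2 signal over all arrays (26383 probe sets, mean signal at least 107) were tested two-sided with limma 3.58.1 (R 4.3.3; lmFit, then eBayes with a mean-dependent prior) at an adjusted p of 0.05. Names came from the platform annotation: 24956 probe sets had 1 symbol, 361 several and 27449 none listed. Pathway genes and likeness used each gene's brightest tested probe set, and marker sums its brightest probe set on the linear scale. Correlation p-values used 100000 permutations in Python 3.11.15. On data simulated from these arrays' means and SDs, limma recovered 32 of 67 probe sets changed by 1 (log2), 56 of 67 changed by 2 and 66 of 66 changed by 3. There were 7 false calls among the unchanged probe sets of the 26383. All changes were planted together, as increases in CR with independent noise. An adjusted threshold is easier to pass when many probe sets change, so recovery of a single changed probe set can be lower and was not simulated.

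Members, lists and tests were chosen with earlier results of these data known. Named genes were all members' probe sets, pathway genes fixed for their role, and the 2 genes most like each member. IRS2 values by array, the pathway genes CCN1, CCN2, CCN3, CCN5, IGFLR1, IGF2BP1, CRIM1 and ESM1, and the correlations of members with each other and with marker sums were added after seeing the data. Replicate numbers did not pair the animals. The GAPDH and actin 3-prime over 5-prime ratios served as RNA quality covariates. Pairs of arrays correlated at r from 0.834 to 0.940 over the tested probe sets. No batch was modelled, and the labels give age as a range for each group. Sequences of the members were not used here.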

Additional observations from a re-analysis of the deposited data

Results flagged for a closer look

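Within each diet, Dixon's gap test looked for single outlying animals in the 21 member probe sets and the 9 marker sums. This gave 7 in 60 groups, where chance gives about 1 in 20, or 3.0. All 7 were in member probe sets. The rate over all tested probe sets was not computed, and the groups share arrays and genes, so no excess particular to the family can be read from this count. In IGF1 probe set 3, CR replicate 8 was lowest of its group at 5.67, with the next CR animal at 7.31. In IGF1R probe set 1, control replicate 5 was lowest of the controls at 5.46 (next 8.11), and CR replicate 5 was highest in CR at 8.38 (next 7.91). Control replicate 5 was also lowest in IGF1R probe set 2, at 7.65 (next 8.29). The lowest IGFBP3 control was replicate 1 at 5.57 (next 7.81), and the lowest IGFBP5 control was replicate 3 at 7.57 (next 9.18). In IGFBP7 probe set 3, control replicate 4 was highest of the controls at 13.43 (next 11.72).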

How the results depend on the processing

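The precision was limited by 5 and 8 arrays, by spread between animals and, for the dim IGF1R probe set, by signal. Depth does not apply to arrays, and batch was not modelled. For the member probe sets (20, and the dim IGF1R one where no filter was used), 189 of 215 differences in 11 other settings and 225 of 260 with 1 animal left out kept their direction and side of the threshold, and none passed limma's adjusted test (lowest adjusted p 0.998 and 0.904). The cause of the reversals was not tested. Quantile normalization gave -0.013 for IGF1 probe set 1, 0.0078 for IGF1 probe set 3, -0.052 for IGFBP6 and -0.020 for IGFBP7 probe set 1. Median centring, which shifts the median of all tested probe sets from -0.012 to -0.043, gave -0.0042 for IGF1 probe set 1 and -0.025 for IGFBP7 probe set 1. Array weights gave 0.13 for IGF1 probe set 3, 0.12 for IGFBP3 and 4.7e-05 for IGFBP5. With RNA quality ratios as covariates, IGFBP3 was 0.13, IGFBP7 probe set 1 -0.0051 and IGFBP7 probe set 5 0.0043. With the replicate number as a block, which pairs no animals (correlations of same-numbered deviations from -0.20 to 0.020), IGF1 probe set 2 was 0.017, IGF1 probe set 3 0.29, IGFBP3 0.066, IGFBP4 0.084, IGFBP5 0.043 and IGFBP7 probe set 5 0.028, and 1 member, IGFBP2 (-0.65), had an unadjusted p under 0.05, 0.0333 (adjusted 0.99993, limma). With both control replicate 4 and CR replicate 8 removed, IGF1 probe set 2 was 0.33, IGF1 probe set 3 0.48, IGF2 0.075, IGFBP3 0.16, IGFBP4 0.25, IGFBP5 0.078, IGFBP7 probe set 3 0.18 and IGFBP7 probe set 4 -0.030.

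With 1 animal left out, the range was -0.25 to 0.41 for IGF1 probe set 1, -0.41 to 0.12 for probe set 2 and -0.17 to 0.24 for probe set 3. It was -0.25 to 0.014 for IGF2, -0.38 to 0.38 for IGF1R probe set 1, -0.60 to 0.14 for IGFBP3, -0.27 to 0.13 for IGFBP4, -0.41 to 0.12 for IGFBP5 and -0.30 to 0.24 for IGFBP6. For IGFBP7 it was -0.11 to 0.067 (probe set 1), -0.53 to 0.00030 (probe set 3), -0.048 to 0.15 (probe set 4) and -0.19 to 0.042 (probe set 5). The count of all probe sets past limma's adjusted threshold ranged from 0 to 1, the latter when either control replicate 1 or control replicate 5 was removed. Marker sums ranged from -0.021 to 0.30 for fibres, -0.24 to 0.15 for fibroblasts and matrix, -0.17 to 0.090 for macrophages, -0.54 to 0.16 for blood, -0.23 to 0.18 for Schwann cells, -0.54 to -0.19 for endothelium, -0.57 to -0.095 for pericytes and smooth muscle, -0.75 to -0.049 for adipocytes and 0.16 to 0.26 for satellite cells. The satellite cell sum had an exact permutation p under 0.05, before adjustment, without control replicate 5 (0.0424), CR replicate 3 (0.0227) or CR replicate 4 (0.0391).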
